A study of Mus musculus with 9 samples.

Results

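DNA replication and S phase genes were measured in cells sorted from the mouse tracheal epithelium. The members are 40 genes listed by name, by a rule that uses no measured value, though they were chosen with earlier results of these data known. Of these, 39 were among the 18193 genes measured here, and Chaf1a, the large subunit of the chromatin assembly factor, had no probe set under that symbol in the annotation used here. Where a gene had several probe sets, the one with the highest mean over the 9 arrays was used. All cells, those of the comparison gate included, came from mice hemizygous for a KRT5-GFP transgene, in which the promoter of keratin 5 drives green fluorescent protein (GFP). The epithelium was freed by enzymes and by hand, and cells were sorted on GFP and on binding of the isolectin GSI-A3B into 3 gates with 3 biological replicates each. The GFP+ gate holds lectin-binding basal cells with GFP, the lectin-only gate holds cells that bind the lectin without GFP and that the labels also call basal, and the columnar gate holds cells with neither, called columnar epithelium. The labels give no age or sex of the mice and do not say whether animals were pooled.

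Before a cell divides it copies its genome once. In G1, the origin recognition complex with Cdc6 and Cdt1 loads the MCM ring onto DNA, which licenses an origin. In S phase, Cdc45 and the GINS complex turn the ring into a working helicase, primase lays down RNA primers and the polymerases extend them on the sliding clamp Pcna. Many of these genes are transcribed under E2F factors, which the retinoblastoma proteins hold back in resting cells. In the trachea, basal cells are known to divide and to give rise to secretory and ciliated cells, and most airway cells are at rest in a healthy adult.

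The deposited values are log2 probe set signals, so a difference of 1 is a doubling of signal, and levels of different genes cannot be set against each other. A gene is said to be called, or to have risen or fallen, where the Benjamini-Hochberg adjusted p from limma was under 0.05 and the log2 difference was at least 1 in size. Errors of differences are limma standard errors and errors of levels are SDs over 3 arrays. Over all probe sets, 8 arrays had medians of 4.90 to 5.16, while that of lectin-only replicate 3 was 5.43. That array had 73.0% of probe sets above a background level of 3.56, against 65.3% to 66.3% on the others. Of the 39 members, 38 were above that level on all 9 arrays and E2f1 on 8. Krt5, the basal keratin, had signals of 6.71, 8.27 and 8.88 on columnar replicates 1 to 3, 12.91, 13.02 and 12.72 in the lectin-only gate and 13.44, 13.44 and 13.42 in the GFP+ gate. Ptprc, the CD45 antigen of leukocytes, stood at 4.36, 2.86 and 2.53, 8.85, 8.29 and 9.72 and 5.11, 4.73 and 6.38 in the same order of gates, and was highest on the lectin-only arrays. In sorted populations measured in bulk, fewer cells of a type and less RNA per cell cannot be told apart.

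The promoters of members are shown because E2F factors are the best known regulators of this group. RefSeq promoters of build GRCm38.p6, each a window of 300 bases with 250 before and 50 after the gene's start, matched 33 of the 40 members. A search on both strands for the E2F-type words TTTGGCGC, TTTGCCGC, TTTCGCGC and TTTCCCGC found at least 1 in 13 of 38 member promoters, or 34.2%, against 744 of 32851 promoters in the whole table, or 2.26%. Of the members with a promoter in the table that were higher in the GFP+ gate, 7 of 12 had such a word, and of the measured members not called there, 6 of 20, counts given as a description. A stretch of each of the 7 follows, 5′ to 3′ on the gene's strand, with the word in capitals, read on either strand. In Mcm5 the capitals cover 2 overlapping words. In Mcm3, Pold1 and Pole2 the word printed lies 19, 39 and 10 bases past the gene's start, and in the rest before it. The Mcm3 window holds 2 such words, of which 1 is shown, and another promoter of Uhrf1 holds 0. A match is a run of letters and no measured binding site.
Orc1 (chr4:108579401-108579453, + strand): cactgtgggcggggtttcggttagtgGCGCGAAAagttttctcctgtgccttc
Cdc6 (chr11:98907987-98908046, + strand): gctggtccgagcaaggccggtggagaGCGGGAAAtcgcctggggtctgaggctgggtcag
Mcm3 (chr1:20820275-20820304, - strand): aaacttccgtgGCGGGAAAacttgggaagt
Mcm5 (chr8:75109334-75109393, + strand): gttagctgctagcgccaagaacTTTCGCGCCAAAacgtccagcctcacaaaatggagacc
Pold1 (chr7:44548766-44548787, - strand): cgtatcttgtgGCGGGAAAagc
Pole2 (chr12:69228162-69228191, - strand): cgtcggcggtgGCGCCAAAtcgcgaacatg
Uhrf1 (chr17:56304102-56304161, + strand): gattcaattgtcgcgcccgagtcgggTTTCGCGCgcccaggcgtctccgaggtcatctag
The word CCAAT, read by the factor NF-Y, was in 21 of 38 member promoters, or 55.3%, against 37.4% of all promoters. The words TTTGAA and TTCGAA, which form the cell cycle homology region of many mitotic genes, were in 5 of 38, or 13.2%, against 19.2%.

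In the GFP+ cells, 14 of 39 members were called higher than in the columnar cells and 0 lower, which is 35.9%, where 5.88% of all 18193 genes were called higher and 5.33% lower. At an unadjusted p under 0.05, limma gave 28 members higher, with 13.1% of all genes, and 0 lower, with 12.1% of all genes. The rise took in the origin licensing genes Orc1 and Cdc6, the helicase genes Mcm3, Mcm5, Mcm10 and Gins1, the polymerase and primase genes Pole2, Pold1, Prim1 and Prim2, the clamp loader gene Rfc4, the salvage enzyme gene Tk1, E2f1 and Uhrf1. Differences of the called members ran from 1.08 for Prim2 to 1.90 for Mcm3. Over all 39 members the median difference was 0.94, with 38 above 0, beside a median of -0.04 and 46.2% above 0 over all genes. In 26 members every GFP+ array was above every columnar array, as in 15.8% of all genes, and in 0 members was the reverse true, as in 17.8%.

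**Figure D1:**
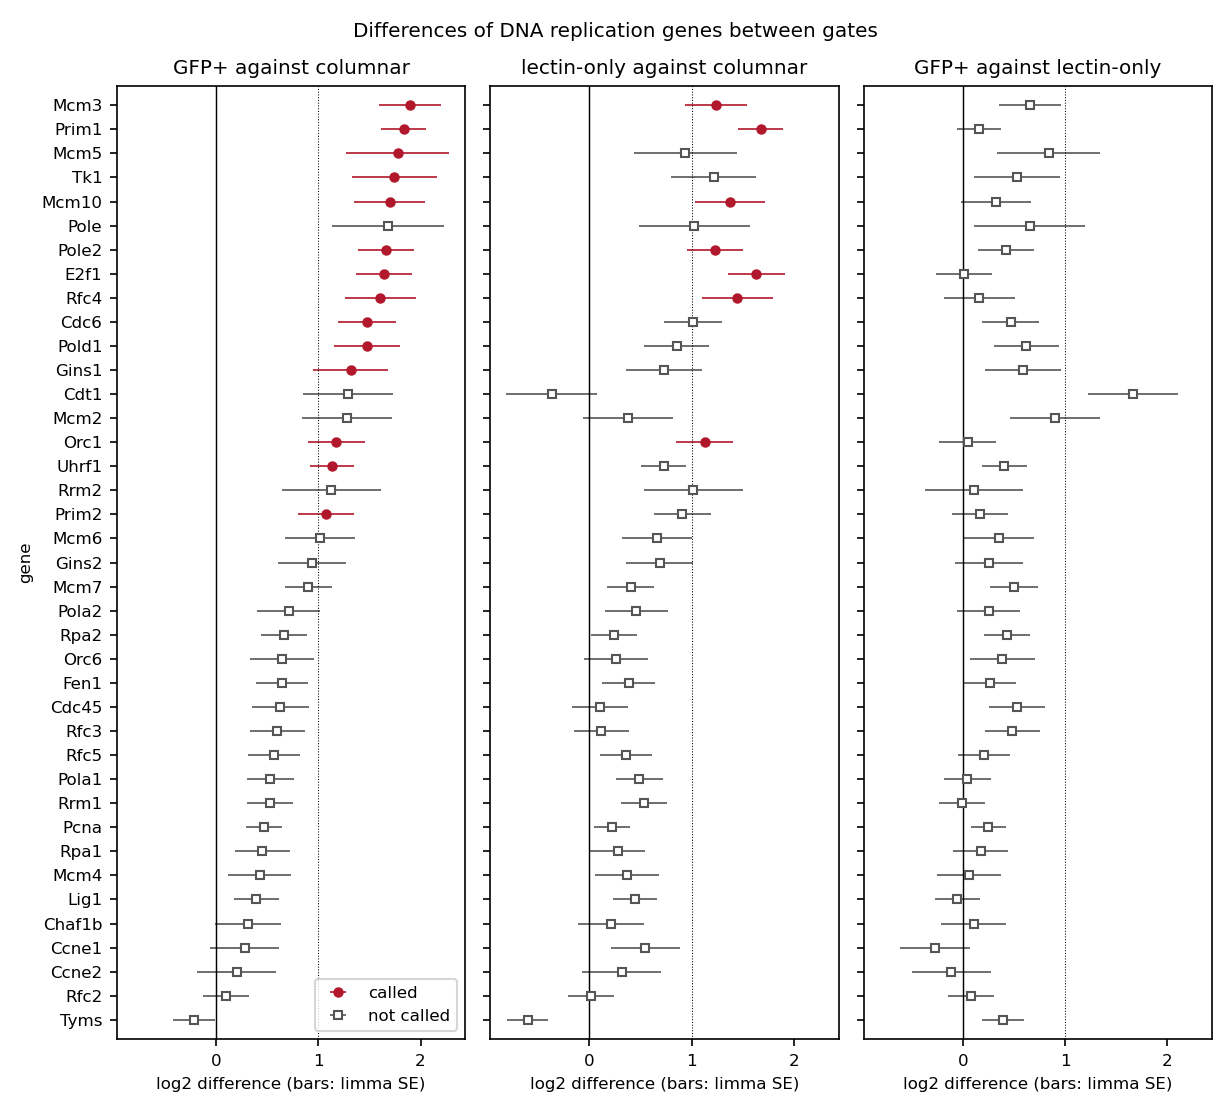
Log2 difference (x axis) with its limma SE (bars) of each of the 39 members (rows, ordered by the first panel) in the 3 comparisons, with red circles for called members and open squares for the rest. The dotted line marks the minimum difference of 1; 14 circles are red in GFP+ against columnar, 7 in lectin-only against columnar and 0 in GFP+ against lectin-only, where Cdt1 lies farthest right.

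Fewer members passed the test in the lectin-only cells. Against columnar, 7 of 39 members were called higher and 0 lower, or 17.9%, where 6.47% of all genes were called higher and 2.38% lower. At an unadjusted p under 0.05, limma gave 13 members higher, with 14.9% of all genes, and 1 lower, the thymidylate synthase gene Tyms, with 6.93% of all genes. The 7 were Orc1, Mcm3, Mcm10, Pole2, Prim1, Rfc4 and E2f1, all of which were also called in the GFP+ gate, against the same columnar arrays. Of the 7 genes whose promoter words are printed, Orc1, Mcm3 and Pole2 are among them. The median over the 39 members was 0.53, with 37 above 0, beside 0.07 and 59.0% over all genes. All lectin-only arrays were above all columnar arrays in 13 members, or 33.3%, as in 16.0% of all genes, and below them in 0 members and 8.61% of all genes. Centring each array on its median moved the median over all genes in this comparison to -0.17 and that of the members to 0.29, with 31 of 39 above 0. Centred values left 4 members called, and the split over all genes went from 1177 higher and 433 lower to 974 and 699.

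Members are grouped by role below, and counts by role rest on few genes and are given as a description. Of all genes, 5.88% were called higher in the GFP+ gate and 6.47% in the lectin-only gate. Licensing of origins was read from 4 members, of which 2 rose in the GFP+ gate and 1 in the lectin-only gate. Orc1, the ATPase subunit that marks the origin recognition complex in G1, had log2 signals of 3.58, 3.64 and 3.74 on columnar replicates 1 to 3, 4.07, 5.16 and 5.11 on the lectin-only arrays and 4.90, 4.66 and 4.92 on the GFP+ arrays. The columnar arrays were just over background, and both lectin-binding gates were above them on every array. The differences from columnar were 1.18 ± 0.28 (adjusted p = 0.0190) in the GFP+ gate and 1.13 ± 0.28 (adjusted p = 0.0288) in the lectin-only gate. Cdc6, which joins the origin complex to load the ring, stood at 5.25, 5.21 and 5.16 on columnar replicates 1 to 3, 6.36, 5.54 and 6.75 on the lectin-only arrays and 6.48, 6.70 and 6.88 on the GFP+ arrays. Its columnar arrays were nearly level, the GFP+ arrays were all higher and lectin-only replicate 2 lay lowest of its gate. Cdc6 rose by 1.48 ± 0.28 in the GFP+ gate (adjusted p = 0.00642), a 2.79-fold signal, and its lectin-only difference of 1.01 ± 0.28 missed the threshold at an adjusted p of 0.0505. Cdt1, the partner of Cdc6 that Gmnn holds back after licensing, had, on the probe set used, its lowest mean in the lectin-only gate and its highest in the GFP+ gate, with 8.01, 8.77 and 9.16 on columnar replicates 1 to 3, 9.23, 8.26 and 7.35 on the lectin-only arrays and 10.13, 9.82 and 9.87 on the GFP+ arrays. The GFP+ arrays were above all others and close together, and lectin-only replicate 3 was the lowest array of the 9. Its differences were 1.29 ± 0.44 for GFP+ against columnar (adjusted p = 0.0917) and -0.37 ± 0.44 for lectin-only against columnar (adjusted p = 0.728), neither called. Another Cdt1 probe set had its lowest mean in the columnar gate. Orc6, a small subunit of the origin complex, was not called at 0.65 ± 0.31 and 0.26 ± 0.31.

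The 6 subunits of the MCM ring, the core of the replicative helicase, gave 2 calls in the GFP+ gate and 1 in the lectin-only gate. Mcm3 had the largest difference of any member in the GFP+ gate, with signals of 6.13, 7.13 and 7.11 on columnar replicates 1 to 3, 7.89, 7.88 and 8.30 on the lectin-only arrays and 8.45, 9.10 and 8.51 on the GFP+ arrays. The gates did not overlap, in the order columnar, lectin-only, GFP+, and columnar replicate 1 was well below its replicates. The differences were 1.90 ± 0.30 (adjusted p = 0.00242), a 3.72-fold signal, and 1.23 ± 0.30 (adjusted p = 0.0291). Mcm5 stood at 6.39, 8.16 and 8.04 on columnar replicates 1 to 3, 8.60, 7.67 and 9.15 on the lectin-only arrays and 8.93, 9.40 and 9.60 on the GFP+ arrays. The GFP+ arrays, all above the columnar ones, were called at 1.78 ± 0.50 (adjusted p = 0.0437), and columnar replicate 1 was again far below its replicates. The lectin-only difference of Mcm5 was 0.94 ± 0.50 (adjusted p = 0.336). Mcm2 and Mcm6 had differences of 1.28 ± 0.44 (adjusted p = 0.0915) and 1.02 ± 0.34 (adjusted p = 0.0848) in the GFP+ gate. Mcm7 had a difference of 0.90 ± 0.23 with an adjusted p of 0.0294, under 0.05 but short of the minimum size. Mcm4 had the smallest difference of the ring, 0.43 ± 0.31, with overlapping arrays.

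Of the 4 members that open the ring into a moving helicase, 2 rose in the GFP+ gate. Mcm10, a firing factor that is not part of the ring, had signals of 4.10, 4.75 and 3.85 on columnar replicates 1 to 3, 5.36, 5.36 and 6.11 on the lectin-only arrays and 5.41, 5.88 and 6.50 on the GFP+ arrays. Every array of both lectin-binding gates was above every columnar array. It rose by 1.70 ± 0.34 (adjusted p = 0.00893) and by 1.37 ± 0.34 in the lectin-only gate (adjusted p = 0.0318). Gins1, of the GINS complex, stood at 6.002, 7.322 and 6.171 on columnar replicates 1 to 3, 7.248, 6.720 and 7.703 on the lectin-only arrays and 7.560, 8.113 and 7.770 on the GFP+ arrays, with columnar replicate 2 above lectin-only replicates 1 and 2. Its differences were 1.32 ± 0.37 (adjusted p = 0.0432), called, and 0.73 ± 0.37 (adjusted p = 0.308), not called. Gins2, of the same complex, was not called at 0.94 ± 0.33 and 0.69 ± 0.33. Cdc45, the third component of the moving helicase, was at 0.63 ± 0.28 in the GFP+ gate, where replicate 2, at 6.94, was above the other arrays. Another Cdc45 probe set, above background on 9 arrays, was at -0.40 ± 0.28 there and -0.28 ± 0.28 in the lectin-only gate, not called.

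Of the 7 primase and polymerase genes, 4 rose in the GFP+ gate and 2 in the lectin-only gate. Prim1, the catalytic primase subunit, had the lowest adjusted p of the members in both comparisons, with signals of 8.83, 8.96 and 9.03 on columnar replicates 1 to 3, 10.82, 10.20 and 10.83 on the lectin-only arrays and 10.66, 10.61 and 11.05 on the GFP+ arrays. The columnar arrays were close together, and all 6 lectin-binding arrays were higher by more than 1. The differences were 1.84 ± 0.22 (adjusted p = 4.4e-04) and 1.68 ± 0.22 (adjusted p = 0.00117), or 3.57-fold and 3.20-fold. Prim2, the large primase subunit, stood at 7.06, 6.70 and 7.02 on columnar replicates 1 to 3, 7.84, 7.33 and 8.33 on the lectin-only arrays and 7.62, 8.23 and 8.16 on the GFP+ arrays. The lectin-binding gates overlapped each other and lay above the columnar arrays. Its differences were 1.08 ± 0.28 (adjusted p = 0.0283), called, and 0.91 ± 0.28 (adjusted p = 0.0706), not called. Pole2, the accessory subunit of the leading-strand polymerase epsilon, had 5.89, 6.02 and 5.77 on columnar replicates 1 to 3, 7.18, 6.51 and 7.69 on the lectin-only arrays and 7.46, 7.74 and 7.45 on the GFP+ arrays. Its lectin-only replicate 2 lay between the columnar arrays and the rest. It rose by 1.66 ± 0.27 (adjusted p = 0.00283) and 1.23 ± 0.27 (adjusted p = 0.0179). Pold1, the catalytic subunit of the lagging-strand polymerase delta, had 8.22, 9.19 and 8.96 on columnar replicates 1 to 3, 9.80, 9.03 and 10.10 on the lectin-only arrays and 10.31, 10.08 and 10.41 on the GFP+ arrays. The GFP+ arrays were above all columnar arrays, with a difference of 1.48 ± 0.32 (adjusted p = 0.0127), while lectin-only replicate 2 fell inside the columnar range and the difference there was 0.85 ± 0.32 (adjusted p = 0.146). Pole, the catalytic subunit of polymerase epsilon, had a difference as large, 1.68 ± 0.54, but was not called (adjusted p = 0.0756). Its columnar arrays spread from 4.17 to 6.12, against 5.77 to 6.02 for Pole2. Pola1 and Pola2, of the polymerase alpha that starts each strand with primase, were at 0.53 ± 0.23 and 0.71 ± 0.31, not called.

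The clamp, its loader and the single-strand binding protein RPA gave 1 call of 7 in each gate. The share is 14.3%, beside 5.88% and 6.47% of all genes. The call was that of the loader subunit Rfc4. Its signals were 7.25, 7.88 and 7.68 on columnar replicates 1 to 3, 9.19, 8.31 and 9.66 on the lectin-only arrays and 8.78, 9.34 and 9.51 on the GFP+ arrays. All lectin-binding arrays were above all columnar arrays. The differences were 1.61 ± 0.35 (adjusted p = 0.0126) and 1.45 ± 0.35 (adjusted p = 0.0262). Pcna, the clamp itself and a common marker of proliferating cells, had 11.60, 11.49 and 11.63 on columnar replicates 1 to 3, 11.78, 11.86 and 11.74 on the lectin-only arrays and 12.11, 12.25 and 11.77 on the GFP+ arrays. Every GFP+ array was above every columnar array by a small margin, and the difference of 0.47 ± 0.17 (adjusted p = 0.116) was not called. The other loader subunits among the members, Rfc5, Rfc3 and Rfc2, were at 0.56 ± 0.26, 0.60 ± 0.27 and 0.10 ± 0.23 in the GFP+ gate, and RPA subunits Rpa2 and Rpa1 at 0.67 ± 0.22 and 0.45 ± 0.27, none called. Fen1, the flap nuclease, and Lig1, the ligase, which finish Okazaki fragments, were not called at 0.65 ± 0.26 and 0.39 ± 0.22.

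Of the 4 genes that supply deoxynucleotides, 1 rose, Tk1, the S phase thymidine kinase of the salvage route. Its signals were 5.36, 6.89 and 6.33 on columnar replicates 1 to 3, 7.19, 7.33 and 7.70 on the lectin-only arrays and 7.19, 8.40 and 8.21 on the GFP+ arrays. Columnar replicate 1 was well below its replicates, and all lectin-binding arrays were above all columnar ones. The GFP+ difference was 1.74 ± 0.42 (adjusted p = 0.0203) and the lectin-only difference 1.21 ± 0.42 (adjusted p = 0.110). Rrm2, the S phase subunit of ribonucleotide reductase, had 8.85, 10.77 and 9.57 on columnar replicates 1 to 3, 10.28, 11.24 and 10.72 on the lectin-only arrays and 10.21, 11.18 and 11.19 on the GFP+ arrays. Columnar replicate 2 was above some arrays of both lectin-binding gates, and the differences of 1.13 ± 0.48 (adjusted p = 0.177) and 1.02 ± 0.48 (adjusted p = 0.261) were not called. Rrm1, the partner subunit, was at 0.53 ± 0.23 in the GFP+ gate. Its other probe sets were at 0.96, above background on 9 arrays, and at -0.61, above it on 5, neither called. Tyms, the enzyme that makes thymidylate from deoxyuridylate, was the 1 member below 0 in the GFP+ gate, at -0.21 ± 0.20 (adjusted p = 0.611). Its lectin-only difference was -0.60 ± 0.20 (adjusted p = 0.106), and neither was called. The other Tyms probe sets were above background on 0 of 9 arrays, so both values rest on 1 probe set.

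E2f1, an activator among the E2F factors, was the called member of the 3 that govern entry into S phase. Its signals were 3.50, 4.28 and 4.21 on columnar replicates 1 to 3, 5.18, 5.62 and 6.09 on the lectin-only arrays and 5.52, 5.74 and 5.65 on the GFP+ arrays. Columnar replicate 1 was under background, and every array of both lectin-binding gates was above the highest columnar array. The differences were nearly equal, 1.64 ± 0.28 in the GFP+ gate (adjusted p = 0.00321) and 1.63 ± 0.28 in the lectin-only gate (adjusted p = 0.00458). Ccne1 and Ccne2, the E cyclins that work with Cdk2, were not called in either gate. They were at 0.28 ± 0.34 and 0.20 ± 0.39 in the GFP+ gate, and at 0.55 ± 0.34 and 0.32 ± 0.39 in the lectin-only gate. Another Ccne1 probe set, above background on 9 arrays, was at 0.87 ± 0.48 and 1.09 ± 0.48, not called. Uhrf1, which carries DNA methylation onto the new strand, stood at 8.20, 8.88 and 8.71 on columnar replicates 1 to 3, 9.20, 9.27 and 9.50 on the lectin-only arrays and 9.49, 9.91 and 9.79 on the GFP+ arrays. Each lectin-binding array was above each columnar array, with a called difference of 1.13 ± 0.22 (adjusted p = 0.00665) and one of 0.73 ± 0.22 (adjusted p = 0.0673) that was not called. Chaf1b, a subunit of the chromatin assembly factor, was at 0.31 ± 0.32, not called.

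**Figure D2:**
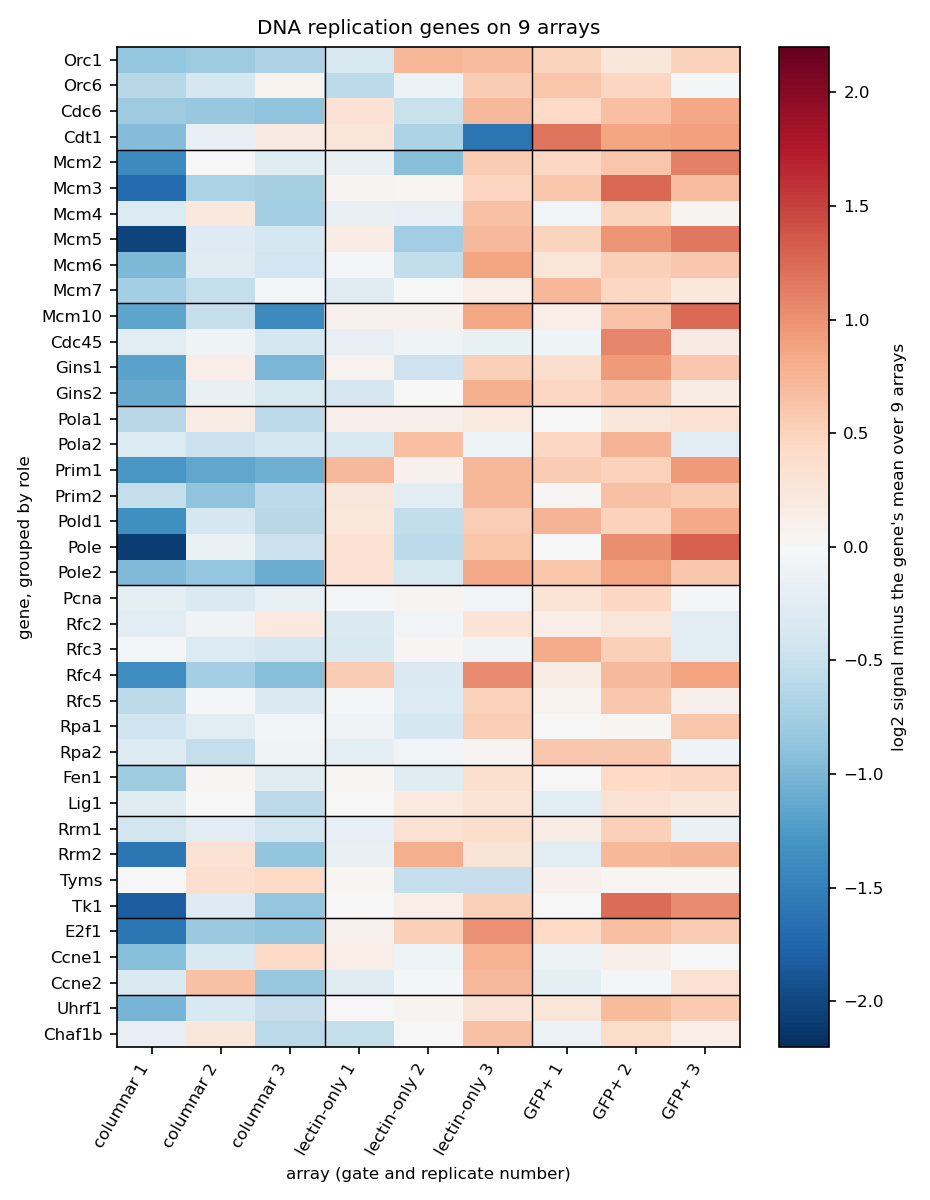
Colour shows the log2 signal minus the gene's mean over 9 arrays (red above, blue below), for each of the 39 members (rows, grouped by role) on each array (columns, by gate). Most rows turn from blue in the columnar gate to red in the GFP+ gate, columnar replicate 1 is the darkest blue column, and Cdt1 on lectin-only replicate 3, with a signal of 7.35, is blue where most other members are red.

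**Figure D3:**
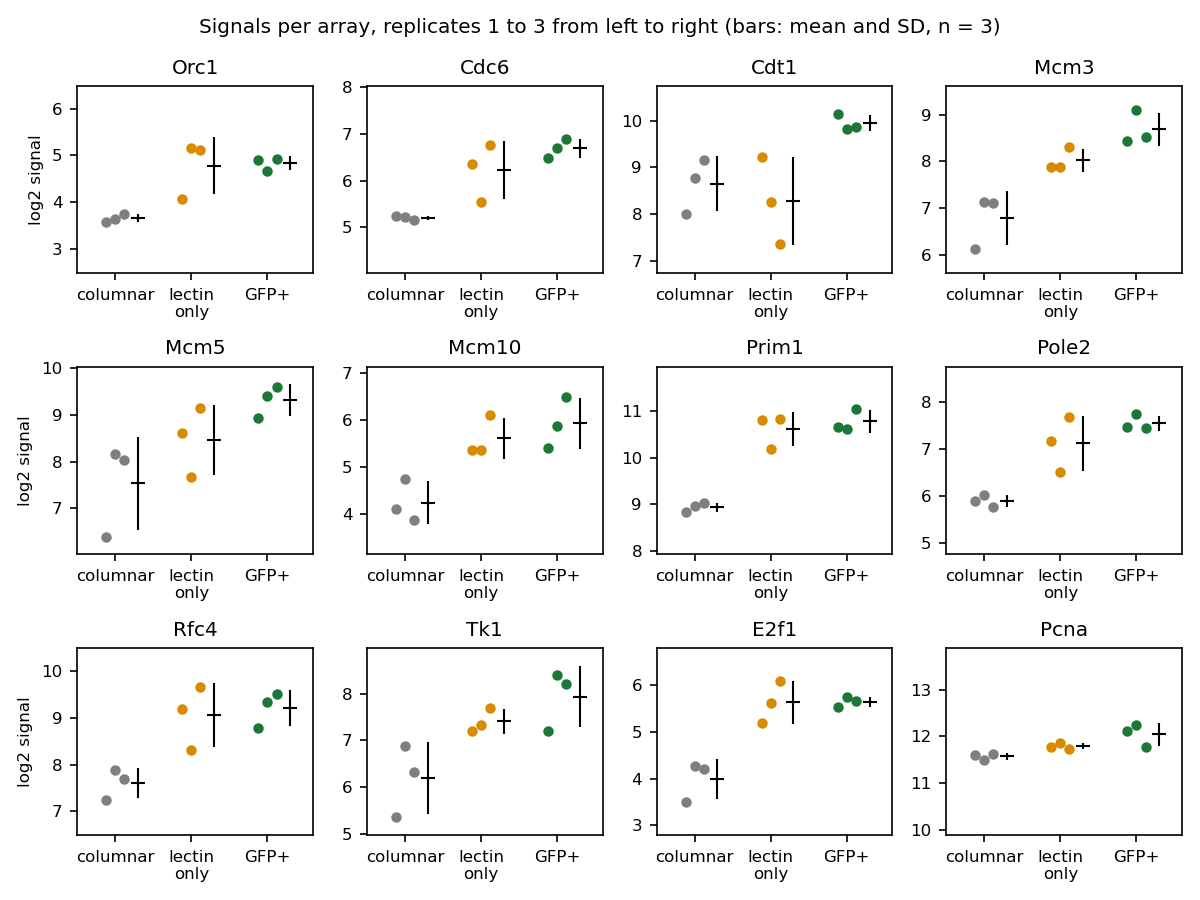
Log2 signal (y axis, with a range of its own in each panel) of 12 members on the 9 arrays, as 1 point per array with replicates 1 to 3 from left to right in each gate (x axis), beside the mean and SD of the 3 arrays. Prim1 columnar arrays lie at 8.83 to 9.03 and all lectin-binding arrays at 10.20 or above, columnar replicate 1 of Mcm5 lies at 6.39 below its replicates, and Cdt1 is highest on the 3 GFP+ arrays.

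Several calls were lost when 1 array was left out. In GFP+ against columnar, Mcm3, Mcm10, Cdc6, Pole2, Prim1 and E2f1 were called with any 1 of the 9 arrays left out. The count fell from 14 to 7 without columnar replicate 1, where Mcm5 (1.21), Tk1 (1.33), Gins1 (1.07), Orc1 (1.14), Prim2 (1.15), Rfc4 (1.43) and Uhrf1 (0.94) were no longer called. It fell to 8 without GFP+ replicate 3, where Mcm5 (1.63), Tk1 (1.61), Gins1 (1.34), Orc1 (1.13), Pold1 (1.40), Prim2 (1.00) and Rfc4 (1.46) were not called. Mcm5 was also lost without columnar replicate 3 (2.04), lectin-only replicate 1 (1.78), GFP+ replicate 1 (1.97) or GFP+ replicate 2 (1.73), and Gins1 without the same 4 (1.15, 1.32, 1.44 and 1.17). Prim2 was lost without columnar replicate 2 (0.96), columnar replicate 3 (1.12) or GFP+ replicate 2 (0.97), Orc1 without columnar replicate 2 (1.17) or GFP+ replicate 1 (1.14), and Tk1 without GFP+ replicate 2 (1.51). Every one of these differences stayed positive.

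In lectin-only against columnar, Prim1 and E2f1 were called with any 1 array left out. The count of 7 was 2 with either columnar replicate 1 or lectin-only replicate 3 left out, and 3 with either columnar replicate 3 or lectin-only replicate 1 left out. Without columnar replicate 1, Orc1 (1.09), Mcm3 (0.90), Mcm10 (1.31), Pole2 (1.23) and Rfc4 (1.27) were not called, and without lectin-only replicate 3 the same 5 were not (0.96, 1.10, 1.12, 0.95 and 1.14). Mcm10, Pole2 and Rfc4 were also lost without columnar replicate 3 (1.18, 1.17 and 1.49) or lectin-only replicate 1 (1.50, 1.21 and 1.38). Mcm3 was lost without lectin-only replicate 1 (1.30) or 2 (1.31), Orc1 without columnar replicate 2 (1.12), columnar replicate 3 (1.17) or lectin-only replicate 2 (0.94), and Mcm10 without GFP+ replicate 2 (1.37).

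The members that were not called in lectin-only against columnar ran from -0.60 for Tyms to 1.21 for Tk1. In the MCM ring, Mcm6, Mcm7, Mcm2 and Mcm4 stood at 0.66 ± 0.34, 0.40 ± 0.23, 0.38 ± 0.44 and 0.37 ± 0.31. Of the polymerases, Pole stood at 1.03 ± 0.54, Pola1 at 0.49 ± 0.23 and Pola2 at 0.46 ± 0.31, and Cdc45, which joins the ring at firing, at 0.10 ± 0.28. The clamp gene Pcna was at 0.22 ± 0.17, the loader genes Rfc5, Rfc3 and Rfc2 at 0.36 ± 0.26, 0.11 ± 0.27 and 0.02 ± 0.23, and Rpa1 and Rpa2 at 0.28 ± 0.27 and 0.24 ± 0.22. Rfc2 was the member nearest 0 in this comparison. Fen1, Lig1, Rrm1 and Chaf1b were at 0.38 ± 0.26, 0.45 ± 0.22, 0.53 ± 0.23 and 0.21 ± 0.32.

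The arrays within a gate were not level for these genes. Columnar replicate 1 held the lowest value of the 9 arrays for 23 of 39 members. Taking each member's deviation from its own mean over the 9 arrays, the median over members was -0.79, -0.28 and -0.47 on columnar replicates 1 to 3, -0.01, -0.07 and 0.53 on the lectin-only arrays and 0.27, 0.59 and 0.50 on the GFP+ arrays. All 3 columnar arrays were below all lectin-binding arrays by this measure, and lectin-only replicate 3 lay with the GFP+ arrays. The same median over all genes was 0.31 on lectin-only replicate 3 and between -0.08 and -0.01 on the others. The gap between 3′ and 5′ probe sets of Gapdh, larger where RNA is shorter, was 1.28 to 1.54 log2 units in the columnar gate, 1.60 to 1.82 in the lectin-only gate and 1.32 to 2.07 in the GFP+ gate, and that of beta-actin was 1.03 to 1.93, 1.69 to 2.29 and 1.42 to 2.40. Columnar replicate 1 had the smallest gap for both, and the part of this in the result was not tested.

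**Figure D4:**
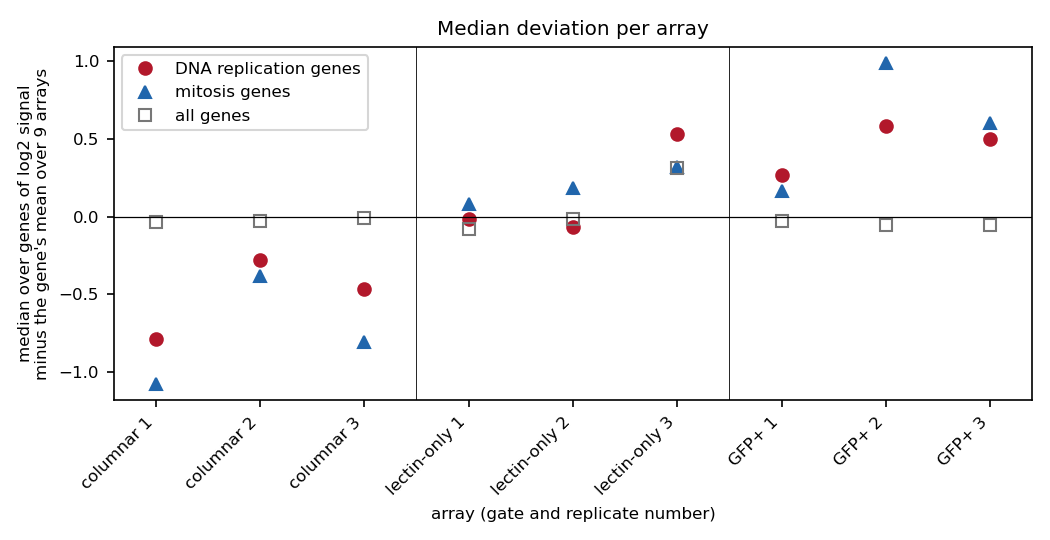
Median over genes of the log2 signal minus the gene's mean over 9 arrays (y axis) on each array (x axis), for the 39 members (red circles), mitosis genes (blue triangles) and all genes (hollow squares). The members run from -0.79 on columnar replicate 1 to 0.59 on GFP+ replicate 2, mitosis genes from -1.08 to 0.99 on the same arrays, and all genes stay between -0.08 and 0.31.

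Leukocyte and endothelial markers moved with the lectin-only gate. Of 23 markers measured, 20 were called higher there than in the columnar gate, and their summed linear signal was 40246 to 56076, against 16273 to 16556 in the columnar gate and 7045 to 12136 in the GFP+ gate. None of the 23 was under background on all lectin-only arrays, and in the columnar gate Cd3g was. In the GFP+ gate, 6 of the 23 were called higher than columnar and 1, Lyz2, lower, with a median difference of 0.88 and 19 above 0. Lyz2, a lysozyme gene, made up 85.0% to 92.1% of the columnar sum. Without it, chosen after the data were seen, the sums were 1293 to 2479 in the columnar gate, 27747 to 43475 in the lectin-only gate and 2034 to 6482 in the GFP+ gate, so that the GFP+ arrays overlapped the columnar ones. Of 10 endothelial markers, 3 were called higher in the lectin-only gate than columnar and 0 lower, with summed signals of 251 to 353 against 148 to 153, and Cdh5, Kdr and Emcn were under background on all columnar arrays. In the GFP+ gate the endothelial sum was 127 to 150. The part of leukocytes and endothelial cells in the values of the members was not tested. Of 13 basal markers, 11 were called higher than columnar in each lectin-binding gate.

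Between the lectin-binding gates, 0 of 39 members were called in either direction by limma, where 0.896% of all genes were called higher in the GFP+ gate and 2.84% lower. At an unadjusted p under 0.05 there was 1 member higher, Cdt1, with 4.11% of all genes, and 0 lower, with 11.2%, and limma with a trended and robust prior called that gene as well. Cdt1 differed by 1.66 ± 0.44, a 3.17-fold ratio of GFP+ to lectin-only signal (adjusted p = 0.0747), with all 3 GFP+ arrays above all lectin-only arrays. Without lectin-only replicate 1, whose signal of 9.23 was the highest of its gate, Cdt1 was called at 2.14 (adjusted p = 0.0306), and with the trended and robust prior its adjusted p was 0.0377. The next largest differences, of Mcm2 and Mcm5, were 0.91 ± 0.44 and 0.84 ± 0.50, and the lowest, of Ccne1, was -0.27 ± 0.34. Along with Cdt1, Mcm3 (0.66 ± 0.30) and Mcm7 (0.50 ± 0.23) had all GFP+ arrays above all lectin-only arrays, which is 3 of 39 members, or 7.69%, and 5.24% of all genes. The reverse held for 0 members and 13.3% of all genes. The median over members was 0.26, with 35 above 0, beside -0.10 and 35.9% over all genes.

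Most members had further probe sets, which read other parts of their transcripts. Of 39 members, 31 had several, 48 more in all, and 33 of the 48 were above background on at least 3 arrays. Each was fitted on its own over all probe sets, an alternative added after the data were seen. In GFP+ against columnar, 12 of the 48 were called higher and 0 lower, where 4.70% of all 34945 probe sets with 1 symbol were called higher and 3.87% lower. In lectin-only against columnar, 3 of the 48 were called higher and 0 lower, where the shares of all probe sets were 4.73% and 1.61%. Of 9 members called in GFP+ against columnar with another probe set above background, 6 had another called as well, which were Mcm3, Mcm5, Mcm10, Pold1, Prim1 and Rfc4. Another 4 members, Mcm6, Mcm7, Cdt1 and Rfc3, were called there by a further probe set alone. With the mean of all probe sets of a symbol in place of the brightest, the count of called members was 8 in the GFP+ gate and 3 in the lectin-only gate. Uhrf1, Orc1, Prim2, Gins1, Mcm10, Pole2 and E2f1 were lost in the GFP+ gate by this measure, at 0.86, 0.64, 0.48, 0.94, 0.78, 0.72 and 0.61 in that order, and Mcm2 was gained. For some of these genes the mean takes in probe sets under background on most or all arrays, and for others it does not. Other probe sets were above it on 0 arrays for Orc1, 1 for Pole2 and 0 and 2 for E2f1. Another of Mcm10 was above it on 1 array, and a further one, on 9, was called at 1.43 in GFP+ against columnar. Those of Uhrf1 and Gins1, above background on 9 arrays, were at 0.59 and 0.56, not called. In the lectin-only gate Mcm3 (0.90), Mcm10 (0.59), Orc1 (0.56), Pole2 (0.76) and E2f1 (0.71) were lost and Cdc6 (1.01) was gained. With probe sets free of a cross-hybridisation suffix preferred, Rfc4 was lost there (0.57), and Prim2 was lost in the GFP+ gate (0.37), where Mcm6 and Cdt1 were gained. Of the other probe sets of Prim2, one was under background on all 9 arrays. The one above it had a wide spread, with log2 differences of 0.37 ± 0.77 for GFP+ against columnar, -1.05 ± 0.77 for lectin-only against columnar and 1.42 ± 0.77 for GFP+ against lectin-only, none called. A second probe set of Cdt1 above background on all 9 arrays put the gates in another order than the first, with mean signals of 6.41 in the columnar, 6.73 in the lectin-only and 7.76 in the GFP+ gate. The differences were 1.35 ± 0.30, called, 0.32 ± 0.30 and 1.03 ± 0.30.

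The rest of the replication pathway was read from lists of genes outside the 40. Of 44 other licensing and fork genes, 5 were called higher in the GFP+ gate and 1 lower, and 1 and 1 in the lectin-only gate. In the GFP+ gate this is 11.4% higher and 2.27% lower, beside 5.88% and 5.33% of all genes. In the lectin-only gate it is 2.27% each way, beside 6.47% of all genes higher and 2.38% lower. Cdc7, the kinase that fires licensed origins, had signals of 4.271, 6.098 and 5.024 on columnar replicates 1 to 3, 7.260, 7.578 and 7.375 on the lectin-only arrays and 7.338, 7.998 and 7.373 on the GFP+ arrays. The columnar arrays were far below all others, with differences of 2.44 ± 0.40 (adjusted p = 0.00282) and 2.27 ± 0.40 (adjusted p = 0.00570). Another Cdc7 probe set, above background on 7 arrays, was at 0.03 in the GFP+ gate and -0.06 in the lectin-only gate. The gate means of that probe set were all close to background. Asf1b, a histone chaperone, and Timeless, of the fork protection complex, rose by 1.81 ± 0.43 and 1.77 ± 0.28 in the GFP+ gate. The other two that rose, named after their values were seen, were Exo1, an exonuclease, and Atad5, which unloads the clamp, at 1.54 ± 0.36 and 1.27 ± 0.32. Another Atad5 probe set, above background on 7 arrays, went the other way, at -1.18 in the GFP+ gate and -1.82 in the lectin-only gate, and another of Timeless was at 0.54 and 0.82. With the mean of all probe sets, Atad5 (0.04) and Exo1 (0.49) were not called. The other Exo1 probe sets in that mean were above background on 0 arrays. Gmnn, the geminin gene whose product binds Cdt1 and blocks relicensing, went the other way, with signals of 10.34, 10.63 and 10.80 on columnar replicates 1 to 3, 8.72, 9.48 and 8.97 on the lectin-only arrays and 8.28, 9.28 and 8.29 on the GFP+ arrays. It was highest in the columnar gate on every array and fell in both lectin-binding gates, with differences of -1.97 ± 0.31 (adjusted p = 0.00211) and -1.53 ± 0.31 (adjusted p = 0.0110). On the probe sets used, Cdc7, Timeless and Gmnn were called with any 1 array left out. Asf1b was lost with columnar replicate 1 (1.41), columnar replicate 2 (1.73), GFP+ replicate 2 (1.64) or GFP+ replicate 3 (1.70) left out. Atad5 was lost with the same arrays left out (1.18, 1.24, 1.16 and 1.21), and Exo1 with columnar replicate 2 (1.42) or 3 (1.54) or GFP+ replicate 1 (1.54) or 2 (1.22) left out.

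Of 30 nucleotide synthesis genes measured of 32 listed, 4 rose in GFP+ cells and 1 in lectin-only cells, and 0 fell. The shares that rose are 13.3% and 3.33%, beside 5.88% and 6.47% of all genes, of which 5.33% and 2.38% fell. Dctd, the deoxycytidylate deaminase that feeds thymidylate synthesis, had signals of 3.88, 3.36 and 2.98 on columnar replicates 1 to 3, 4.70, 5.42 and 4.81 on the lectin-only arrays and 6.43, 6.56 and 5.84 on the GFP+ arrays. The gates did not overlap, in the order columnar, lectin-only, GFP+, and only columnar replicate 1 of that gate was above background. The columnar level is thus measured on 1 of 3 arrays, and the differences from it are given as fitted. Dctd was called in all 3 comparisons, at 2.87 ± 0.30 (adjusted p = 2.2e-04), 1.57 ± 0.30 (adjusted p = 0.00873) and, between the lectin-binding gates, 1.30 ± 0.30 (adjusted p = 0.0451). The last call was lost without columnar replicate 2 (1.30), lectin-only replicate 1 (1.16) or 3 (1.22), or GFP+ replicate 1 (1.22) or 2 (1.15). Mthfd1 and Shmt2, of one-carbon metabolism, and Ctps, the cytidine triphosphate synthase, rose by 1.67 ± 0.24, 1.59 ± 0.28 and 1.19 ± 0.29 in the GFP+ gate, and Ctps was not called without columnar replicate 2 (1.13) or 3 (1.08) or GFP+ replicate 1 (0.90). The other Shmt2 probe sets were at 0.97, 0.96 and 0.75.

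Of 27 genes of E2F, retinoblastoma and G1 cyclin control, 4 rose in GFP+ cells and 2 in lectin-only cells, and 0 fell. The shares that rose are 14.8% and 7.41%, beside 5.88% and 6.47% of all genes, of which 5.33% and 2.38% fell. Ccna2, the cyclin of S and G2, rose by 1.71 ± 0.41 in the GFP+ gate. Mybl2, an E2F target that works with the MuvB complex, rose by 1.18 ± 0.26 and 1.88 ± 0.26, and Rbl1, the retinoblastoma relative p107, by 1.12 ± 0.20 and 1.05 ± 0.20. A second Rbl1 probe set, above background on all 9 arrays, was at 0.05 and -0.24, and with the mean of all probe sets Rbl1 was not called in either gate (0.33 and 0.48). That mean also takes in Rbl1 probe sets above background on 2 and 0 arrays. Lin9, of the MuvB complex, rose by 1.01 ± 0.22 in the GFP+ gate, and was not called with the mean of its probe sets (0.42). The other Lin9 probe set was above background on 2 arrays. Without GFP+ replicate 2 the count of 4 was 1, with Ccna2 at 1.55, Mybl2 at 1.09 and Lin9 at 0.97 lost, and without GFP+ replicate 3 it was 1 as well, with the same genes lost at 1.62, 1.11 and 0.95. Ccna2 was also lost without columnar replicate 3 (1.69), Mybl2 without columnar replicate 1 (1.07) and Lin9 without either (0.96 and 0.97). In the lectin-only gate, Rbl1 was lost without lectin-only replicate 3 (0.90) or columnar replicate 3 (0.97). Of 7 CDK inhibitor genes, 1 rose in each gate, or 14.3%, beside 5.88% and 6.47% of all genes. It was Cdkn1a, the p53 target p21 that halts the cycle. Its signals were 9.62, 9.96 and 10.33 on columnar replicates 1 to 3, 11.92, 11.62 and 12.11 on the lectin-only arrays and 10.72, 11.33 and 11.72 on the GFP+ arrays, with differences of 1.28 ± 0.29 (adjusted p = 0.0147) and 1.91 ± 0.29 (adjusted p = 0.00244), and the first was lost with any of columnar replicate 1 (1.11), GFP+ replicate 2 (1.25) or GFP+ replicate 3 (1.05) left out.

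Mitosis genes act after replication is done. Of 43 measured of 44 listed, 27 rose in the GFP+ gate, or 62.8%, and 12 in the lectin-only gate, or 27.9%, with 0 lower in both. Of all genes, 5.88% and 6.47% were called higher. The mitosis shares are above those of the members, a difference that was not tested. Medians of the mitosis genes were 1.28 and 0.92. Nuf2, of the kinetochore, rose by 2.57 ± 0.34 and 1.71 ± 0.34, Cenpa, the histone of the centromere, by 1.97 ± 0.36 in the GFP+ gate (0.04 on a probe set above background on 1 array), and Anln, of the cleavage furrow, by 2.33 ± 0.36. Cenpf, a kinetochore protein of G2 and mitosis, rose by 2.36 ± 0.43 and 2.25 ± 0.43, the second not called with the mean of its probe sets (0.68), and Kif23, a motor of the central spindle, by 1.72 ± 0.25 in the lectin-only gate. The other Cenpf probe sets were above background on 1 and 4 arrays. Between the lectin-binding gates none of the 43 was called, with a median of 0.36. With both columnar replicate 1 and lectin-only replicate 3 left out, the lectin-only count was 5.

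**Figure D5:**
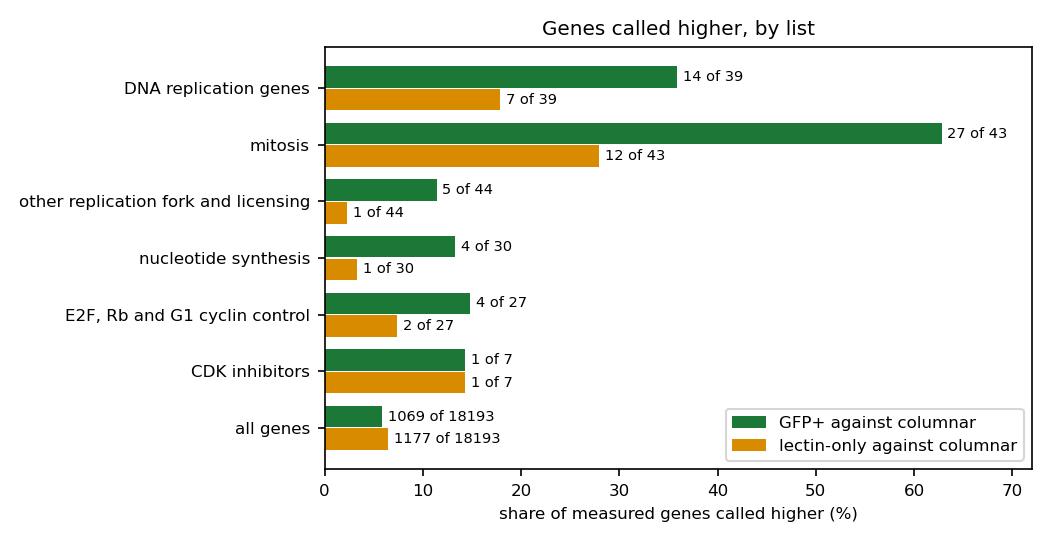
Percent of measured genes called higher than columnar (x axis from 0) in the GFP+ gate (green bars) and the lectin-only gate (orange bars), for the 39 members, 5 other gene lists and all 18193 genes, with counts beside the bars. In the GFP+ gate the members stand at 35.9%, mitosis genes at 62.8% and all genes at 5.88%.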

How the data were processed

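RNA of 9 sorted samples, 3 per gate, was hybridised to Affymetrix mouse arrays after extraction with a QIAGEN RNEasy micro kit and Nugen labelling, per the labels' protocols. The deposited values were log2 signals, which the authors made with RMA, per the submitters' processing notes. The RMA software version is not given in the sources used here. Medians differed between arrays, so other scalings were tried. The table held 45101 probe sets. Of these, 64 control probe sets, 932 with several symbols and 9160 with none were left out. Symbols of 34741 were updated through the RefSeq table. The probe set with the highest mean stood for each of 18193 genes. Background was the 95th percentile of 80 olfactory and vomeronasal receptor probe sets.

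Gate means were fitted to all 9 arrays with lmFit and eBayes of limma 3.58.1 under R 4.3.3 (neither trended nor robust, 6 residual and 3.46 prior degrees of freedom), with p-values adjusted over all genes. The number of arrays limits the precision, and the median SE was 0.24. The fit was tested on simulated data. Of the 40 members, those called are named with their values on each array, and the rest with their differences. Of each other list, up to 4 called genes of largest difference per comparison are named. The members and lists were chosen with earlier results of these data known. Alternatives covered scaling, probe set choice, a background filter, the minimum difference, limma's prior, array weights, the arrays fitted, a replicate block and leaving out each array. The 3 comparisons share arrays, so their results are not independent.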

Additional observations from a re-analysis of the deposited data

How the results depend on the processing

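No called difference of a member reversed under any of 20 alternatives in any comparison; sign changes of differences that were not called were not counted. Over the arrays left out in turn, the count of members called higher was 7 to 16 in GFP+ against columnar, 2 to 8 in lectin-only against columnar and 0 to 1 in GFP+ against lectin-only, where the 1 was Cdt1. Over all genes the last comparison gave 85 to 163 higher and 288 to 517 lower. With the mean of all probe sets of a symbol, 8 and 3 members were called in the first 2 comparisons. With arrays centred on their medians, 4 members were called in lectin-only against columnar and 699 of all genes were lower, and 256 of all genes were higher in GFP+ against lectin-only, whose median over all genes moved from -0.10 to 0.06 and whose split of calls moved from 163 higher and 517 lower to 256 and 457. limma with trend and robust settings called 1 member, Cdt1, in GFP+ against lectin-only. Leaving out columnar replicate 1 and lectin-only replicate 3 together, chosen after seeing the data, gave 9 and 2 members, 779 of all genes higher in lectin-only against columnar and 245 lower in GFP+ against lectin-only. With the replicate number as a block, 15, 10 and 0 members were called higher in the 3 comparisons. Replicate numbers were not taken as pairing the samples, since the labels do not say what a number shares. After gate means were taken off, same-numbered arrays correlated over 0.1 in 4 of 9 pairs (range -0.07 to 0.33). Pairs of other numbers ranged from -0.47 to 0.17, so those 4 pairs, each with a GFP+ array, were above all of them. Calls kept in all 20 alternatives were those of Mcm3, Prim1 and Cdc6 in GFP+ against columnar and of Prim1 in lectin-only against columnar.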
